A study of Homo sapiens with 9 samples.

Results

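The enzymes described here make serine from glucose, pass its carbon into folate metabolism, and make asparagine and proline. They were chosen by symbol, as 10 of the 58735 genes listed for each library: PHGDH, PSAT1 and PSPH for serine synthesis, SHMT1 and SHMT2 for the cleavage of serine to glycine, MTHFD2, MTHFD1L and ALDH1L2 for the folate pathway inside mitochondria, ASNS for asparagine and PYCR1 for proline. No measured value entered the choice of the list, although results of these data were known when it was proposed. Each symbol matched 1 gene.

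RNA-seq had been made from MDA-MB-231 cells, an established human triple-negative breast cancer line, in 9 libraries. The 3 vehicle libraries came from cells given DMSO, the solvent of the drugs. The 3 erastin-R libraries came from cells that had survived increasing concentrations of erastin, which blocks the cystine importer system xc-, and the 3 RSL3-R libraries from cells that had survived increasing concentrations of RSL3, which blocks glutathione peroxidase 4, the enzyme that clears lipid peroxides. The comparisons ask which transcripts differ in cells left after a drug that triggers ferroptosis, an iron-dependent death by lipid peroxidation. All 3 groups are unmodified cells of this single line, so no other line bears on the values, and neither the concentrations nor the duration of treatment are used here. The labels number the libraries of a group but do not say that they came from separate cultures, so p-values measure the spread between libraries, which may be technical. In bulk RNA, a change in every cell and the survival of a subset of cells with other levels cannot be told apart.

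Serine synthesis starts from a glycolytic intermediate. PHGDH oxidizes 3-phosphoglycerate, PSAT1 adds an amino group from glutamate, and PSPH removes the phosphate. Serine hydroxymethyltransferases, SHMT1 in the cytosol and SHMT2 in mitochondria, then move a carbon from serine to tetrahydrofolate and leave glycine. MTHFD2 and MTHFD1L oxidize that carbon inside mitochondria to formate, which supplies purine synthesis in the cytosol, and ALDH1L2 oxidizes it to carbon dioxide while making NADPH. ASNS makes asparagine from aspartate with glutamine as the nitrogen donor, and PYCR1 carries out the last step of mitochondrial proline synthesis. Many genes of this group are textbook targets of ATF4, a transcription factor whose protein is made in larger amounts when amino acids run short.

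ATF4 paired with a C/EBP protein is known to bind sequences of the form TGATGNAA. RefSeq promoter windows of GRCh38.p14, reaching from 250 bases before to 50 bases after an annotated start, were found for 6 of the 10 genes (PHGDH, PSAT1, SHMT1, MTHFD2, MTHFD1L and ASNS; 10 windows), and both strands were searched for these letters. ASNS and MTHFD1L each held a match. The 250 bases before the start are printed 5′ to 3′ on the gene's strand for these 2 genes, because they show where the letters lie, in capitals:
ASNS, chr7:97872409-97872658, minus strand: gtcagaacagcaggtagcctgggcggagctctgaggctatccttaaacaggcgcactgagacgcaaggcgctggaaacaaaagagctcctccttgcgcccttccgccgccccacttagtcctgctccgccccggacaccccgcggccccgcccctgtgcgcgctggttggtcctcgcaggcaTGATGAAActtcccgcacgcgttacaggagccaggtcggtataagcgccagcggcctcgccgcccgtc
MTHFD1L, chr6:150866236-150866485, plus strand: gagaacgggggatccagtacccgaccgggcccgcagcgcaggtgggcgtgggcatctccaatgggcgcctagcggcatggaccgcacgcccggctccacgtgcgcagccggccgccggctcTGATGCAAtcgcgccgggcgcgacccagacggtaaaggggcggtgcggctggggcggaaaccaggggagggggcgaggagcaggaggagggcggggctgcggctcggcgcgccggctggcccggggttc
The ASNS match, TGATGAAA, began 68 bases before the start (position -68, chr7:97872469-97872476). The MTHFD1L match, TGATGCAA, began at -129 of the start used above (chr6:150866357-150866364), and 2 other windows of this gene hold the same bases at -90 and 25. Such letters occurred in 3.62% of all 35116 windows, and 4.46% of the 27305 genes with a window had a match. A match is a description of the sequence, and no binding was measured.

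The libraries held 15405102 to 17273464 counts. Variation between libraries of a group beyond counting error was low, at a coefficient of variation of 8.56% over all genes. It may be technical, as said above. Levels are given in CPM, the count of a gene scaled to a common library total with TMM normalization. Correlation of log2 CPM was 0.986 to 0.992 within groups and 0.959 to 0.972 between groups. Erastin-R replicate 1 stood apart from the other 2 erastin-R libraries on the third principal component (-35.7 against 14.4 and 13.0), so each count below was repeated without it. Mitochondrially encoded transcripts took 7.97% to 8.93% of vehicle counts, 5.55% to 7.95% of erastin-R counts and 9.52% to 10.2% of RSL3-R counts, and the part of this difference in the results was not tested. The defining genes of the line were as labelled: VIM, CD44 and EGFR were far above the other markers in every library, with at least 3670 counts each, ESR1 had 1 to 12 counts and PGR 0 to 2. The epithelial genes CDH1 and EPCAM had 6 to 59 and 15 to 48 counts, with CDH1 at 53 to 59 in RSL3-R against 14 to 27 in vehicle, and the part of CDH1 in the results was not tested.

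The 10 enzymes as a group were mostly higher in the surviving cells. The 10 took 0.0542% to 0.0549% of all counts in vehicle, 0.0794% to 0.0867% in erastin-R and 0.1399% to 0.1405% in RSL3-R. A gene is said to have risen or fallen where its adjusted p was under 0.05 in edgeR's quasi-likelihood test over 16188 genes, and to be past the threshold where its log2 fold change was also at least 1 in size. In erastin-R, 7 enzymes rose and 2 fell, and 3 higher and 1 lower passed the threshold. Of all genes tested, 27.1% rose and 26.8% fell in that comparison, 6.7% passed the threshold upward and 6.66% downward. In RSL3-R, 9 rose and 1 fell, and 8 higher and 1 lower passed the threshold, where 23.8% of all genes rose, 24.9% fell, 6.02% passed the threshold upward and 4.08% downward. Counted in either direction, 54% of all genes changed in erastin-R and 13.4% passed the threshold, and 48.7% and 10.1% did so in RSL3-R, against 9 and 4 of the 10 enzymes in erastin-R and 10 and 9 in RSL3-R. The libraries of both groups compared did not overlap for 9 enzymes in erastin-R and for 10 in RSL3-R. The share of all genes without such overlap was not counted, so these numbers are not set against a background. The median log2 fold change of the 10 enzymes was 0.56 in erastin-R and 1.29 in RSL3-R, while the medians over all genes were -0.00 and 0.01. Both comparisons use the same vehicle libraries, so they are not independent of each other. Leaving out any 1 library left the number of enzymes past the threshold at 4 in erastin-R and at 9 in RSL3-R.

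**Figure D1:**
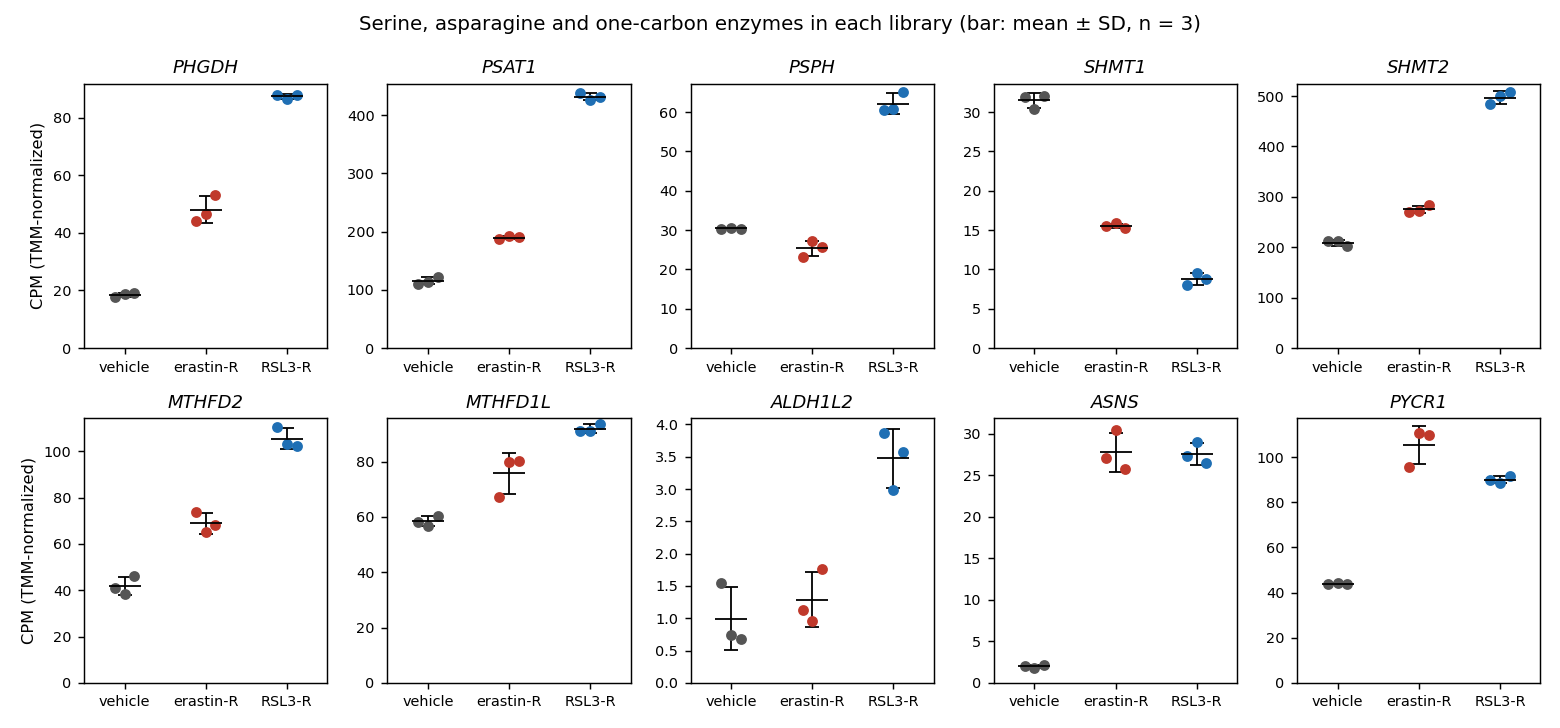
Level of each enzyme gene in each library, in CPM (TMM-normalized; linear axes from 0), for 3 vehicle, 3 erastin-R and 3 RSL3-R libraries; bars give the mean ± SD. SHMT1 fell in both surviving groups while SHMT2 rose, ASNS rose from a mean of 1.97 CPM to between 25.8 and 30.4 CPM, and vehicle and erastin-R libraries overlap only for ALDH1L2.

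PHGDH, which commits carbon to serine, rose in steps from vehicle through erastin-R to RSL3-R. Its level was 17.7, 18.7 and 19.0 CPM in the vehicle libraries, 44.2, 46.6 and 53.3 in erastin-R and 87.7, 86.3 and 88.0 in RSL3-R. The 3 groups did not overlap, and the erastin-R libraries spread most. PHGDH (ENSG00000092621, chr1:119648411-119744226, plus strand) rose 2.60-fold in erastin-R (log2 fold change 1.38, SE 0.08, adjusted p = 1.60e-08) and 4.73-fold in RSL3-R (2.24, SE 0.08, adjusted p = 1.30e-10; edgeR). Of the 16188 genes ordered by log2 fold change, it was number 556 from the top in erastin-R and number 102 in RSL3-R.

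PSAT1, the aminotransferase of the second step, had the same order of groups. It stood at 110.6, 113.9 and 122.4 CPM in vehicle, 186.5, 192.9 and 189.8 in erastin-R and 437.4, 425.5 and 431.6 in RSL3-R. Again no library of one group reached the range of another. PSAT1 (ENSG00000135069, chr9:78297143-78330093, plus strand) rose 1.64-fold in erastin-R (log2 0.71, SE 0.06, adjusted p = 2.02e-07), below the threshold, and 3.73-fold in RSL3-R (log2 1.90, SE 0.06, adjusted p = 6.72e-11).

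PSPH, the phosphatase of the last step, departed from the other 2 serine synthesis genes in erastin-R. It had 30.3, 30.6 and 30.4 CPM in vehicle, 23.3, 27.2 and 25.7 in erastin-R and 60.7, 60.8 and 65.2 in RSL3-R. Every erastin-R library lay under every vehicle library, and every RSL3-R library above. In PSPH (ENSG00000146733, chr7:56011051-56051604, minus strand) erastin-R gave a log2 fold change of -0.26 (SE 0.08, adjusted p = 0.0114) and RSL3-R one of 1.03 (SE 0.08, adjusted p = 9.99e-08, 2.04-fold). The small fall in erastin-R kept an adjusted p of 0.00908 to 0.0351 under every other setting. PSPH shares 8.36% of its 50-base exon stretches with other genes, the largest part with the pseudogene PSPHP1, which had 54 to 103 counts per library.

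The pair of serine hydroxymethyltransferase genes moved in opposite directions. SHMT1, the cytosolic enzyme, was at 32.0, 30.4 and 32.1 CPM in vehicle, 15.5, 15.8 and 15.3 in erastin-R and 7.99, 9.57 and 8.77 in RSL3-R. It was the only 1 of the 10 enzymes to fall in both surviving groups, with no overlap between any groups. The log2 fold change of SHMT1 (ENSG00000176974, chr17:18327860-18363563, minus strand) was -1.02 in erastin-R (SE 0.09, adjusted p = 6.56e-07) and -1.84 in RSL3-R (SE 0.10, adjusted p = 3.47e-09). In the order of all genes it was number 15080 of 16188 in erastin-R and number 16128 in RSL3-R. The erastin-R value lay close to the threshold and ranged from -1.04 to -1.003 over the other settings. SMCR8, on the opposite strand, covers 2.69% of the SHMT1 exon length and had 1195 to 1675 counts per library. Any part of its reads in the SHMT1 counts was not tested.

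SHMT2, the mitochondrial enzyme, was at 213.1, 211.5 and 202.0 CPM in vehicle, 270.3, 272.3 and 283.8 in erastin-R and 483.3, 500.2 and 507.2 in RSL3-R. Its groups did not overlap. SHMT2 (ENSG00000182199, chr12:57229327-57234935, plus strand) rose 1.32-fold in erastin-R (log2 0.40, SE 0.05, adjusted p = 2.67e-05) and 2.38-fold in RSL3-R (log2 1.25, SE 0.05, adjusted p = 5.30e-10).

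The balance of the pair was also read within each library, as the ratio of their deposited FPKM values, which are scaled by gene length. SHMT2 per SHMT1 was 10.03, 10.5 and 9.48 in vehicle, 26.2, 25.9 and 27.9 in erastin-R and 91.0, 78.7 and 87.1 in RSL3-R. The ratio was thus 2.67-fold higher in erastin-R and 8.56-fold higher in RSL3-R than in vehicle, taken as a geometric mean, with no overlap. An exact two-sided permutation test of 3 against 3 libraries cannot go below p = 0.1, and it gave p = 0.1 for each of these comparisons (adjusted p = 0.109 over the 12 ratio comparisons made).

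**Figure D2:**
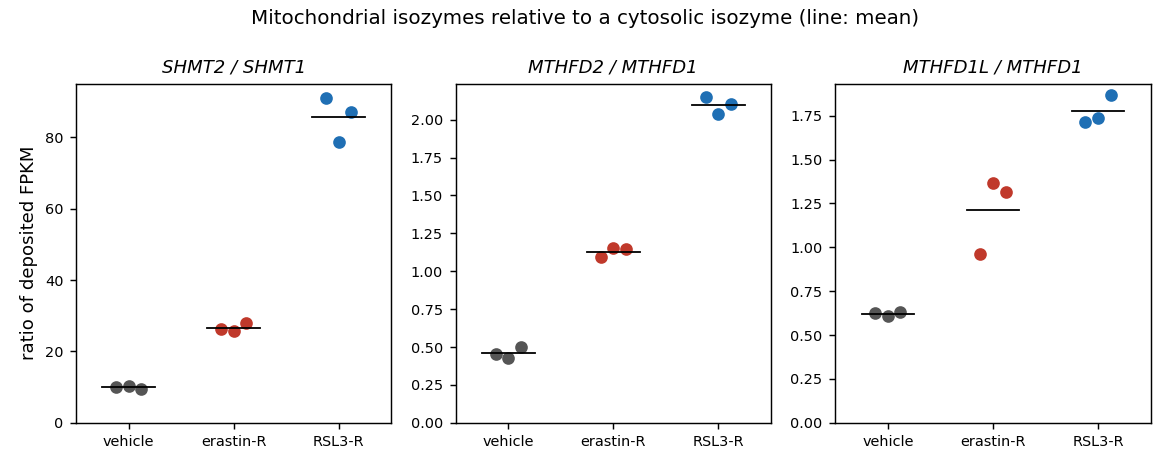
Ratio of deposited FPKM values of isozyme genes within each library (points; linear axes from 0; line: group mean). The mean ratio of SHMT2 to SHMT1 was 9.99 in vehicle, 26.6 in erastin-R and 85.6 in RSL3-R, and in all 3 panels both surviving groups lie above vehicle.

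All 3 genes of the mitochondrial folate pathway rose in RSL3-R, and MTHFD2 and MTHFD1L rose in erastin-R to a smaller size. MTHFD2, a dehydrogenase and cyclohydrolase that is low in most adult tissues, was at 41.1, 38.4 and 46.1 CPM in vehicle, 73.9, 65.0 and 68.1 in erastin-R and 110.6, 103.3 and 102.3 in RSL3-R. The groups were separate. MTHFD2 (ENSG00000065911, chr2:74198562-74217565, plus strand) rose 1.65-fold in erastin-R (log2 0.72, SE 0.08, adjusted p = 4.73e-06) and 2.52-fold in RSL3-R (log2 1.33, SE 0.08, adjusted p = 1.36e-08). SLC4A5, on the opposite strand, covers 27.2% of its exon length but had 2 to 20 counts per library.

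MTHFD1L, which releases formate, was at 58.2, 56.7 and 60.5 CPM in vehicle, 67.2, 79.7 and 80.3 in erastin-R and 91.0, 91.0 and 93.8 in RSL3-R. Erastin-R replicate 1 lay below its 2 companions, yet above every vehicle library. MTHFD1L (ENSG00000120254, chr6:150865549-151101887, plus strand) rose 0.37 on the log2 scale in erastin-R (SE 0.07, adjusted p = 7.88e-04) and 0.65 in RSL3-R (SE 0.07, adjusted p = 7.16e-06, 1.57-fold). It was the only enzyme of the 10 not to pass the threshold in RSL3-R.

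ALDH1L2, which was measured on few reads, had 26, 12 and 11 counts in vehicle, 19, 15 and 29 in erastin-R and 60, 48 and 61 in RSL3-R. Vehicle and erastin-R overlapped, and RSL3-R lay above both. The log2 fold change of ALDH1L2 (ENSG00000136010, chr12:105019784-105084577, minus strand) was 0.37 in erastin-R (95% interval -0.41 to 1.14, adjusted p = 0.408), so neither a fall nor a doubling could be told at this depth. In RSL3-R it rose 3.47-fold (log2 1.80, SE 0.32, adjusted p = 3.73e-04). C12orf45, on the opposite strand, covers 1.70% of the ALDH1L2 exon length and had 221 to 330 counts per library. Any part of its reads in the ALDH1L2 counts was not tested.

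MTHFD2 and MTHFD1L were also set against MTHFD1, which carries out the same folate steps in the cytosol. MTHFD1 itself fell, from 175 CPM ± 2.73 (SD, n = 3) in vehicle to 118 ± 11.2 in erastin-R and 96.8 ± 2.78 in RSL3-R (log2 fold changes -0.57 and -0.86, adjusted p = 9.26e-06 and 2.46e-07). The FPKM ratio of MTHFD2 to MTHFD1 went from 0.459 in vehicle to 1.13 in erastin-R and 2.10 in RSL3-R, and that of MTHFD1L to MTHFD1 from 0.623 to 1.21 and 1.77. Neither ratio overlapped between vehicle and a surviving group, at the smallest p the exact permutation test can give (0.1). Thus in both folate pairs, which share MTHFD1, as in the SHMT pair, the mitochondrial gene rose and its cytosolic counterpart fell. MTHFD2L, a mitochondrial relative of MTHFD2, rose by 0.47 in erastin-R (adjusted p = 0.00316) and by 0.33 in RSL3-R (adjusted p = 0.0294, and 0.0696 to 0.116 without vehicle replicate 1, vehicle replicate 2, RSL3-R replicate 1 or RSL3-R replicate 2). The ratio of MTHFD2 to MTHFD2L, both mitochondrial, was 4.97 to 5.602 in vehicle and 5.26 to 7.75 in erastin-R, which overlapped (exact permutation p = 0.2), and 10.2 to 10.99 in RSL3-R (exact permutation p = 0.1, the smallest possible). ALDH1L1, the cytosolic relative of ALDH1L2, had 4 to 22 counts. Its log2 fold change was 1.17 in RSL3-R (adjusted p = 0.0434), a call lost when any single vehicle or RSL3-R library other than vehicle replicate 1 or RSL3-R replicate 3 was left out (highest adjusted p = 0.169), and the value was 2.02 without vehicle replicate 1.

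ASNS showed the largest rise of the 10 in both surviving groups. Its counts were 35, 28 and 34 in vehicle, 454, 478 and 424 in erastin-R and 424, 467 and 452 in RSL3-R, or 1.97 ± 0.209, 27.7 ± 2.40 and 27.6 ± 1.32 CPM (mean ± SD, n = 3). The 2 surviving groups overlapped and lay far above vehicle. ASNS (ENSG00000070669, chr7:97852118-97872542, minus strand) rose 14.0-fold in erastin-R (log2 3.81, SE 0.13, adjusted p = 2.58e-10) and 13.9-fold in RSL3-R (log2 3.80, SE 0.13, adjusted p = 9.09e-11), which made it number 10 and number 14 of the 16188 genes by log2 fold change. Its promoter is the one printed above with TGATGAAA. MTHFD1L, the other gene with a match, did not pass the threshold in either surviving group. Any part of these letters in the changes was not tested.

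The size of the ASNS change depends on a second annotated gene. AC079781.5 (ENSG00000284707), a processed transcript on the same strand, overlaps 44.6% of the ASNS exon length and holds 82.0% of its 50-base exon stretches, and how reads that fit both genes were counted is not given in the sources used here. AC079781.5 had 97, 83 and 74 counts in vehicle, 107, 90 and 95 in erastin-R and 137, 156 and 142 in RSL3-R. In vehicle it thus had more counts than ASNS itself. With the counts of both genes summed, the rise was 4.72-fold in erastin-R (log2 2.24, SE 0.10, adjusted p = 1.54e-09) and 5.12-fold in RSL3-R (log2 2.36, SE 0.10, adjusted p = 5.46e-10). The direction and the call held, while the size was smaller than for ASNS alone. If reads that fit both genes were counted for neither, the sum leaves them out as well.

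PYCR1 rose in both groups and more in erastin-R. It was at 43.7, 44.1 and 43.8 CPM in vehicle, 95.5, 110.5 and 109.6 in erastin-R and 89.9, 88.5 and 91.6 in RSL3-R. Here alone among the 10 the erastin-R libraries were the highest without overlap. PYCR1 (ENSG00000183010, chr17:81932384-81942412, minus strand) rose 2.40-fold in erastin-R (log2 1.26, SE 0.07, adjusted p = 7.48e-09) and 2.05-fold in RSL3-R (log2 1.04, SE 0.07, adjusted p = 4.01e-08). AC145207.4, on the opposite strand, covers 15.6% of the PYCR1 exon length and had 0 counts. MYADML2, on the same strand, covers 14.1% and had 0 to 4 counts per library. PYCR3, a cytosolic enzyme for the same step, was at -0.51 in erastin-R (adjusted p = 0.0216, and 0.0515 and 0.0808 without vehicle replicate 1 or 2; -0.28 without erastin-R replicate 1) and fell by 1.14 on the log2 scale in RSL3-R (adjusted p = 1.20e-04).

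**Figure D3:**
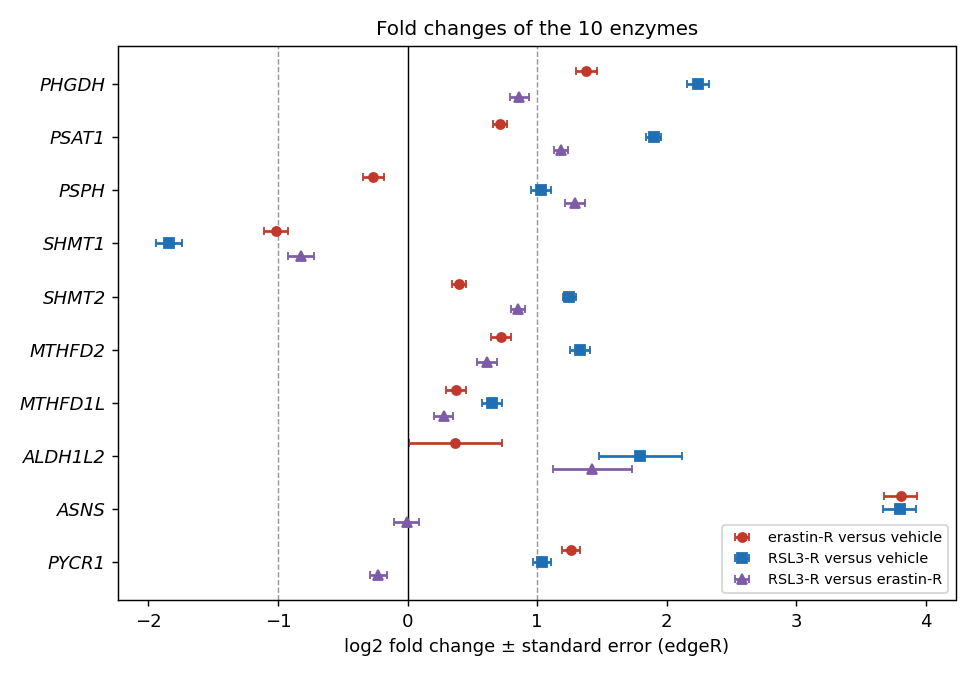
Log2 fold change of each enzyme gene with its standard error (edgeR) in erastin-R against vehicle (circles), RSL3-R against vehicle (squares) and RSL3-R against erastin-R (triangles); dashed lines mark the threshold of 1. Squares lie further from 0 than circles for PHGDH, PSAT1, PSPH, SHMT1, SHMT2, MTHFD2, MTHFD1L and ALDH1L2, and the ASNS triangle lies at -0.01.

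The 2 surviving groups were then compared directly. In RSL3-R against erastin-R, 7 enzymes were higher and 2 lower at an adjusted p under 0.05, and 3 higher and none lower passed the threshold. Of all genes, 22.3% were higher and 26.9% lower (49.2% in either direction), while 6.86% passed the threshold upward and 3.48% downward (10.3% in either direction). The libraries of the 2 groups did not overlap for 9 of the 10, and the share of all genes without overlap was not counted. The 3 were ALDH1L2 (2.69-fold, log2 1.43, SE 0.31, adjusted p = 0.00166), PSPH (2.45-fold, log2 1.29, SE 0.08, adjusted p = 2.31e-08) and PSAT1 (2.27-fold, log2 1.19, SE 0.06, adjusted p = 3.10e-09). PHGDH was 0.86 higher on the log2 scale (adjusted p = 8.74e-07), SHMT2 0.85 higher (adjusted p = 3.86e-08), MTHFD2 0.61 higher (adjusted p = 2.34e-05) and MTHFD1L 0.28 higher (adjusted p = 0.00613). SHMT1 differed by -0.83 (adjusted p = 1.60e-05). All 3 serine synthesis genes and all 3 mitochondrial folate genes were thus higher in RSL3-R. The median of the 10 was 0.73, against -0.02 over all genes.

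ASNS and PYCR1 stood outside that order. For ASNS the difference was -0.01 (SE 0.09, adjusted p = 0.955) with a 95% interval of -0.21 to 0.20, so a difference of more than that size in either direction lay outside the interval. Summed with AC079781.5 it was 0.12 (adjusted p = 0.292). AC079781.5 alone was 0.58 higher in RSL3-R (adjusted p = 0.00309). PYCR1 was 0.22 lower on the log2 scale in RSL3-R (log2 -0.22, SE 0.07, adjusted p = 0.0125), and this call was lost without erastin-R replicate 2 (adjusted p = 0.0539), without RSL3-R replicate 1 (0.0831) or 3 (0.0672), and with only these 2 groups fitted (0.0632).

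Levels were compared between the genes only after scaling by length, in deposited FPKM. In vehicle PSAT1 was the highest at 52.3 ± 2.87 (SD, n = 3) and SHMT2 followed at 42.7 ± 1.14. PYCR1 (15.04 ± 0.0703), MTHFD1L (11.5 ± 0.393), PSPH (10.9 ± 0.0529) and MTHFD2 (8.502 ± 0.813) came next. SHMT1 (4.28 ± 0.128), PHGDH (1.98 ± 0.0749), ASNS (0.438 ± 0.0469) and ALDH1L2 (0.115 ± 0.0564) were the lowest 4 on this scale. The ASNS value rests on its own counts alone. AC079781.5, which holds 82.0% of the ASNS 50-base exon stretches, had more counts than ASNS in vehicle. No neighbours in the vehicle order shared a range of values.

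PSAT1, SHMT2 and PYCR1 kept the first 3 places in every group, at 85.5, 56.1 and 36.0 FPKM in erastin-R and 196, 102 and 31.0 in RSL3-R. ALDH1L2 kept the last, at 0.149 and 0.405. In erastin-R, MTHFD1L (14.9 ± 1.51) and MTHFD2 (14.0 ± 0.875) overlapped, and ASNS (6.14 ± 0.522) lay just above PHGDH (5.14 ± 0.527), the highest PHGDH library at 5.72 and the lowest ASNS library at 5.73. The order of ASNS and PHGDH may also depend on how reads shared with AC079781.5 were counted. In RSL3-R, PSPH (22.4 ± 0.969) and MTHFD2 (21.5 ± 0.914) overlapped. SHMT1 went from rank 7 in vehicle to rank 9 in both surviving groups, below PHGDH and ASNS. The lengths behind these FPKM values join the exons of all annotated transcripts, which for PHGDH gives 9217 bases against 2585 in its longest principal transcript. With the shorter lengths PHGDH moved up to rank 5 in erastin-R and rank 4 in RSL3-R, and in vehicle SHMT2 passed PSAT1 and SHMT1 passed MTHFD2, which took SHMT1 to rank 6 and MTHFD2 to rank 7.

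**Figure D4:**
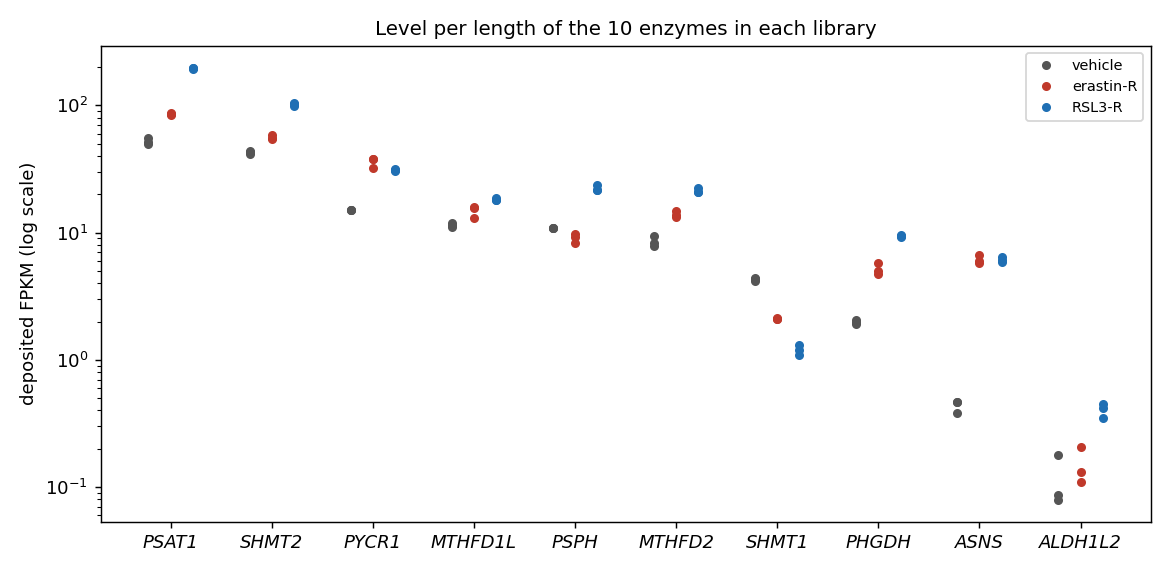
Deposited FPKM of the 10 enzyme genes in each library (log axis; 3 points per group; genes in order of their vehicle mean). PSAT1 and SHMT2 are the highest in every group, SHMT1 descends from vehicle to RSL3-R, and ASNS climbs from 0.438 to 6.14 and 6.15. The ASNS values leave out the counts of AC079781.5.

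Lists of other genes of the same metabolism are read against the shares of all genes, of which 27.1% rose and 26.8% fell in erastin-R (54% in either direction) and 23.8% rose and 24.9% fell in RSL3-R (48.7% in either direction). Among folate cycle and transport genes, 13 of 15 had enough counts to be tested. In erastin-R 4 rose and 4 fell with a median log2 fold change of 0.01, near the shares of all genes, and in RSL3-R 4 rose and 6 fell with a median of -0.16. TYMS, the thymidylate synthase, fell by 0.74 on the log2 scale in erastin-R and by 1.43 in RSL3-R (adjusted p = 8.70e-06 and 2.44e-08). Without RSL3-R replicate 1, the 10 folate genes called in RSL3-R became 6, of which 2 rose and 4 fell.

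Of 13 genes for the use and transport of serine and glycine, 12 were tested. In erastin-R 3 rose and 3 fell (median 0.05), near the 27.1% and 26.8% of all genes. In RSL3-R 1 rose and 6 fell (median -0.17; 23.8% and 24.9% of all genes). With any 1 vehicle or RSL3-R library left out, only 5 of the 12 were called in RSL3-R in either direction. That share is near the 48.7% of all genes. GCAT, which takes part in threonine breakdown to glycine, had 133 to 174 counts in vehicle, 153 to 218 in erastin-R and 53 to 68 in RSL3-R. It fell by 1.42 on the log2 scale in RSL3-R (adjusted p = 1.20e-05). SFXN2, of the sideroflexin family of mitochondrial carriers, fell by 0.86 in erastin-R (adjusted p = 8.16e-04) and by 1.34 in RSL3-R (adjusted p = 3.11e-05). AMT, part of the glycine cleavage system, was called higher in erastin-R (log2 1.71, adjusted p = 0.0348) on 1 to 15 counts, a call lost without vehicle replicate 1 or 3 or erastin-R replicate 3 (adjusted p up to 0.133).

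Among other genes of proline, aspartate and asparagine metabolism, 8 of 10 were tested. In erastin-R 1 rose and 4 fell, in all a share near the 54% of all genes (median -0.06; 1 rose and 2 fell without vehicle replicate 1, and likewise without vehicle replicate 2), and in RSL3-R none rose and 6 fell (median -0.49; 23.8% and 24.9% of all genes). ALDH18A1, which makes the precursor used by PYCR1, was at 67.9 ± 3.90 CPM in vehicle, 102 ± 4.97 in erastin-R and 54.6 ± 0.837 in RSL3-R. It rose by 0.59 on the log2 scale in erastin-R (adjusted p = 5.06e-06) and fell by 0.32 in RSL3-R (adjusted p = 0.0015), whereas PYCR1 rose in both. ALDH4A1, which breaks proline down towards glutamate, fell by 0.61 and by 1.58 (adjusted p = 0.00393 and 3.45e-06). ASRGL1, an asparaginase, had 3 to 23 counts, with log2 fold changes of -1.64 (adjusted p = 0.00844) and -1.47 (adjusted p = 0.0162, and 0.0512 to 0.0886 without vehicle replicate 3, RSL3-R replicate 1 or RSL3-R replicate 3).

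ATF4 and the genes that control its translation were described in the same way. All 7 were tested, and 5 rose and 1 fell in erastin-R (median 0.30) while 4 rose and none fell in RSL3-R (median 0.43). Of all genes 27.1% and 23.8% rose in these comparisons, and 54% and 48.7% changed in either direction, a share that the 4 of 7 called in RSL3-R are near. ATF4 mRNA was at 299 ± 4.92 CPM in vehicle, 368 ± 12.4 in erastin-R and 479 ± 16.7 in RSL3-R. PHGDH, PSAT1, SHMT2, MTHFD2 and MTHFD1L had the same order of groups, and ALDH1L2 had it in its means only. PSPH, SHMT1, ASNS and PYCR1 did not share it. ATF4 rose by 0.30 on the log2 scale in erastin-R (adjusted p = 3.40e-04) and 0.68 in RSL3-R (adjusted p = 2.19e-07). PPP1R15A, which restores translation after stress, rose by 0.81 and 1.19 (adjusted p = 5.66e-06 and 1.73e-07). ATF4 is controlled largely at translation, and protein was not measured in these files.

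**Figure D5:**
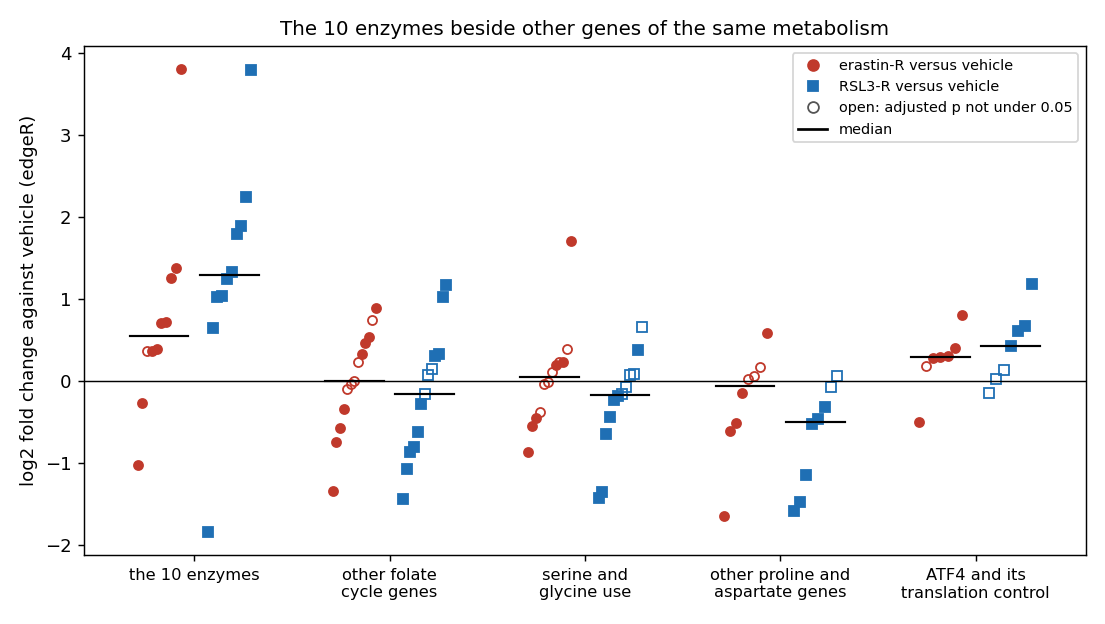
Log2 fold change against vehicle (edgeR) of the 10 enzymes and of 4 lists of related genes, in erastin-R (circles) and RSL3-R (squares); open symbols did not pass an adjusted p of 0.05 and lines mark medians. In RSL3-R the median of the 10 enzymes was 1.29, that of the ATF4 list 0.43, and those of the other 3 lists lay between -0.49 and -0.16.

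Likeness between profiles is given as a description over 9 libraries that fall into 3 groups. Each enzyme's centred log2 CPM was correlated with the mean of the other 9. Pearson's r was 0.995 for PHGDH, 0.980 for MTHFD2 and 0.973 for MTHFD1L, and it was lowest among the positive values for PSPH, at 0.619. SHMT1 had -0.994. Single pairs ranged more widely, with r = 0.170 for PSPH with PYCR1, 0.320 for PSPH with ASNS and 0.485 for ALDH1L2 with PYCR1. Of 12960 protein-coding genes outside the list, those with a profile most like the mean of the 10 were CXCL8, the chemokine interleukin-8 (r = 0.998), CYTH3 (0.997), CHAC1, an enzyme that breaks down glutathione (0.996), TCP11L2 (0.995) and PABPC1L (0.995). The log2 fold changes of CHAC1 were 2.24 (erastin-R) and 3.84 (RSL3-R), and those of CXCL8 were 1.53 and 2.65.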

How the data were processed

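RNA was measured in 9 MDA-MB-231 libraries, 3 per group, grouped by the treatment given in the labels. Per the study's methods, poly(A) RNA was sequenced and unique exonic reads were kept. The submitters' processing notes name HISAT2 2.0.5 and featureCounts 1.5.0-p3. The authors deposited raw counts per gene and FPKM values made from the same counts and exon lengths. Whether counting used strand is not given in the sources used here. All 58735 gene identifiers matched GENCODE 29 (GRCh38) by chromosome, start and end.

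Counts were tested in R 4.3.3 with edgeR 4.0.16 (TMM, filterByExpr, quasi-likelihood F test, all 3 groups in one fit, Benjamini-Hochberg adjustment over 16188 genes). The edgeR steps were tested on simulated data. SE is the log2 fold change divided by the square root of F. FPKM served only for levels between genes and isozyme ratios, with an exact permutation test. Depth per library was 15405102 to 17273464 counts, where 3 counts equal 0.175 to 0.193 CPM.

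The members and lists were chosen with earlier results of these data known. Named were the 10 members and listed genes past the threshold (at most 5 per list and comparison, by adjusted p). Also named were the isozymes MTHFD1, ALDH1L1, MTHFD2L and PYCR3, ATF4, the 5 genes most correlated with the members' mean, and some overlapping genes. Some genes of the lists are counted but not reported here by name. ALDH18A1, SPTLC2 and SFXN1 were named after their values were seen. Alternatives were DESeq2 1.42.0, its size factors, no filter, only 2 groups, a replicate block and each library left out. Summing ASNS with AC079781.5, and principal transcript lengths, were added after seeing the data. For each pair of libraries of 1 group, the squared difference in counts averaged 2.43 to 23.9 times the counting variance over genes. None therefore repeated the counts of another. This does not show that they came from separate cultures.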

Additional observations from a re-analysis of the deposited data

Results flagged for a closer look

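Genes with opposite directions in the surviving groups were singled out by the direct test of RSL3-R against erastin-R (edgeR). PSPH was 1.29 higher in RSL3-R on the log2 scale (adjusted p = 2.31e-08), at -0.26 in erastin-R and 1.03 in RSL3-R against vehicle. ALDH18A1 differed by -0.91 (adjusted p = 1.86e-07), at 0.59 and -0.32 against vehicle. SPTLC2, a subunit of the enzyme that joins serine to a fatty acid in sphingolipid synthesis, differed by -0.43 (adjusted p = 4.76e-05), at 0.20 and -0.23. Its erastin-R call against vehicle was lost with no filter on low counts (adjusted p = 0.0600), and without RSL3-R replicate 3 its RSL3-R value against vehicle was -0.16 (adjusted p = 0.0902). SFXN1, a mitochondrial serine transporter, differed by -0.42 (adjusted p = 1.52e-04), at 0.23 in erastin-R and -0.18 in RSL3-R, where its call (adjusted p = 0.0339) was lost in all but 1 of the 6 fits that left out a vehicle or RSL3-R library, with adjusted p from 0.0393 to 0.147, as well as with a replicate block (0.0564) and in DESeq2 (0.0575).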

How the results depend on the processing

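The number of enzymes past the threshold was 4 in erastin-R, 9 in RSL3-R and 3 between them under every setting, including DESeq2, its size factors, no filter and each library left out. Genes past the threshold over the whole table ranged from 1990 to 2573 in erastin-R (2573 without erastin-R replicate 1), from 1567 to 1861 in RSL3-R and from 1514 to 2143 between them. Size factors shifted the median of all genes by at most 0.02. The difference of ASNS between RSL3-R and erastin-R, -0.01 and not called, had the other sign with DESeq2 size factors (0.0086), in DESeq2 (0.0087), with only 2 groups fitted (0.031) and with the counts of AC079781.5 added (0.12), and was -0.062 to 0.060 with 1 library left out. ASRGL1 between the surviving groups, also not called, ranged from -0.23 to 0.56 with 1 library left out. Same-numbered libraries of different groups did not deviate together (correlation of deviations -0.0904 to 0.0518). Whether they were prepared together cannot be told from this measure. With a replicate block the counts were 2153, 1614 and 1652 genes, and the enzymes past the threshold were again 4, 9 and 3. Among genes under about 30 counts, the calls of ALDH1L1 and ASRGL1 in RSL3-R and of AMT in erastin-R were lost when certain single libraries were left out, while that of ASRGL1 in erastin-R held in every setting (highest adjusted p = 0.0476), and depth limits what ALDH1L2 can show in erastin-R.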
